A study of Drosophila melanogaster with 18 samples.

Results

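The genes described are those of the mitochondrial ribosomal proteins, chosen as every gene of the count tables whose symbol begins with mRpL (large subunit) or mRpS (small subunit). They are 73 of the 17609 genes, 47 of the large and 26 of the small subunit. Subunits are counted by symbol throughout, although the mammalian counterparts of mRpS18A and mRpS30 sit in the large subunit. Levels were measured by sequencing polyA RNA in 18 libraries of Drosophila S2 cells, a line of embryonic origin with macrophage-like traits, in 9 groups of 2 libraries. In the 3 factor lines, S2-Zld, S2-Grh and S2-Twi, added CuSO4 switches on a transcription factor: Zelda (Zld), an activator of the early embryonic genome, Grainy head (Grh), a regulator of epithelial genes, or Twist (Twi), which specifies mesoderm. The groups are S2-Zld induced and uninduced, S2-Grh induced and uninduced, S2-Twi induced with 40 µM CuSO4, and wild type cells (S2-WT) with 0, 40, 100 and 1000 µM CuSO4. Cells were harvested 48 h after induction. The labels print the dose as 1000 mM for induced S2-Zld and as 100 mM for induced S2-Grh, in contrast to µM for wild type, so lines and wild type were paired by the printed figure and the unit is uncertain. No uninduced S2-Twi group was analysed here, and the labels do not say whether a line is a clone, whether wild type carries an empty transgene, or whether replicates are separate cultures. Every p-value therefore measures the spread between these libraries, which may be technical.

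Mitochondria keep ribosomes of their own, which translate the few mRNAs of the mitochondrial genome into core subunits of the respiratory chain and of ATP synthase. All of their proteins are encoded in the nucleus, translated by cytosolic ribosomes and imported, whereas their rRNAs come from mitochondrial DNA. Some of the proteins have counterparts in bacterial ribosomes, and others were added in the mitochondrial lineage. In Drosophila, many genes of this kind are needed for growth, and mutations in several of them give developmental delay or lethality.

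By the families of their mammalian counterparts, 45 members belong to families known from bacteria, mRpL47 among them, and 28 are mitochondria-specific. The members are spread over the genome, with 12 on chromosome 2L, 12 on 2R, 17 on 3L, 21 on 3R and 11 on X. They are short, with 327 to 2078 exonic bases (median 783). Of the 73, 43 share exonic bases with a neighbouring gene, 41 of them mainly with a gene on the opposite strand, and 30 share none. The library kit does not keep strand, so reads in bases shared with a gene on the opposite strand cannot be assigned to either gene. For mRpL53 and mRpL13 the partner lies on the same strand, so strand would not separate them. The values of the 8 members with over 20% shared bases are uncertain. These are mRpL53 (100%, with CG33155), mRpS24 (55.3%, with TBC1d7), mRpS21 (48.0%, with CG8870), mRpS14 (35.8%, with Naa15-16), mRpL13 (35.2%, with CG10602), mRpS9 (25.1%, with ArgRS-m), mRpL17 (23.6%, with CG34263) and mRpL48 (20.8%, with frtz).

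The libraries held 10459648 to 28575923 counts. Levels of zld, the gene of the factor, were 5680 and 5290 CPM in induced S2-Zld, 213 and 324 CPM in the uninduced line and at most 15.3 CPM elsewhere. CPM here are counts per 1000000 scaled by TMM factors over the 18 libraries. Levels of grh were 1060 and 998 CPM in induced S2-Grh and 47.1 and 37.7 CPM in the uninduced line, and those of twi were 1570 and 1890 CPM in induced S2-Twi, so both uninduced lines already expressed some of their factor. Of 10 plasmatocyte (macrophage-like blood cell) genes, srp, Pxn, Col4a1, vkg and Ppn were at or above 38.1 CPM in every library, whereas NimC1 and He stayed at or below 6.24 CPM. The summed level of the 10 was lowest in wild type at 40 µM, at 1380 to 2220 CPM, and highest in induced S2-Twi, at 4090 to 5710 CPM. The latter sum was mostly Col4a1 and vkg, with means of 2330 and 1660 CPM, both higher than in wild type at 40 µM (edgeR adjusted p under 0.05). By the same test Hml (1.69 against 12.3 CPM), eater, Sr-CI and Ppn were lower in induced S2-Twi. Pxn, srp, He and NimC1 did not pass it. Of 10 markers of other cell types, elav was at 14.3 to 33.2 CPM and the other 9 stayed at or below 2.23 CPM. Whether these shifts bear on the members was not tested.

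Members were expressed at moderate and rather even levels. One member, mRpL53, had 0 counts in all 18 libraries, where 3 counts would be 0.105 to 0.287 CPM. All of its exonic bases lie in CG33155, itself at 1 to 10 counts. With no base of its own, mRpL53 cannot be given a level from its 0 counts. The other 72 had at least 30 counts in every library and passed the filter on low counts in every comparison. Together the members took 0.198% to 0.275% of counts, against 16.1% to 24.4% for the 92 genes of the cytosolic ribosome. On a per-length scale (RPKM, from the deposited gene lengths), the median of the 72 mean levels was 32.9 RPKM, with quartiles of 26.4 and 43.8 RPKM. Subunits were alike on that scale, with a median of 34.5 RPKM for the large and 32.8 RPKM for the small subunit. The bacterial-type genes had a median of 36.1 RPKM and the mitochondria-specific ones of 32.6 RPKM. No count was recorded for any of the 37 genes of the mitochondrial genome, the 2 rRNAs of the same ribosome included, so mitochondrial transcripts could not be set beside the nuclear genes.

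**Figure D1:**
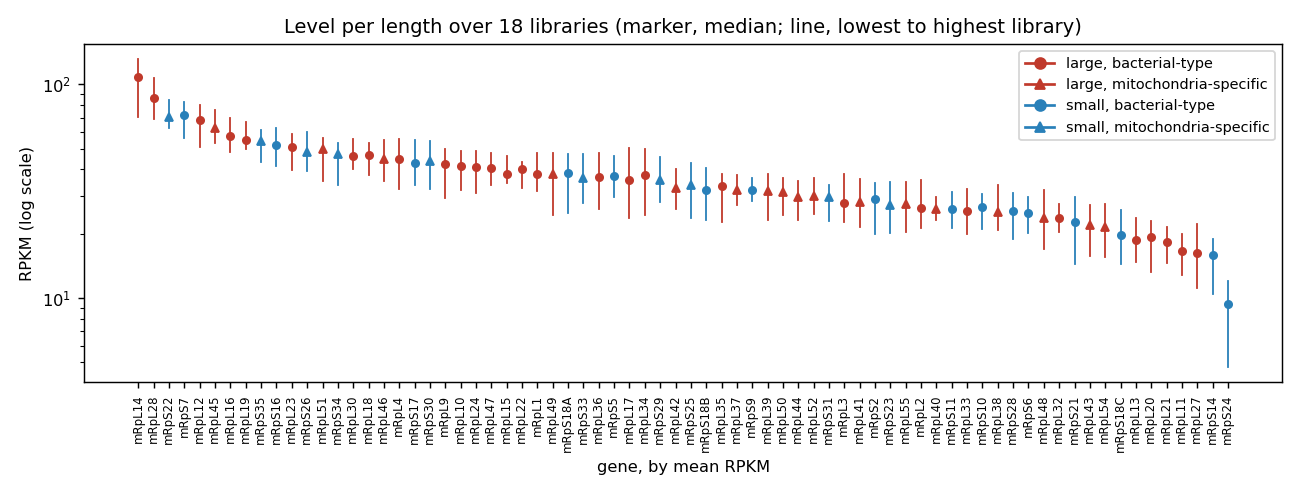
Level per length of 72 members (RPKM, log scale), ordered by mean; markers are medians over 18 libraries, lines run from the lowest to the highest library. The quartiles of the mean levels are 26.4 and 43.8 RPKM, with mRpL14 (mean 108 RPKM) at the top and mRpS24 (8.83 RPKM) at the bottom.

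The highest level per length was that of mRpL14 (FBgn0040389, chromosome X, 2343997 to 2344649 on dm6), a core protein of the large subunit, with a mean of 108 RPKM and 70.1 to 131 RPKM over the libraries. It was followed by mRpL28 (87.9 RPKM), mRpS22 (73.1 RPKM), a mitochondria-specific protein, mRpS7 (71.2 RPKM), of the head of the small subunit, and mRpL12 (66.7 RPKM), the stalk protein that recruits translation factors. The range of mRpL14 overlaps that of mRpL28 (69.1 to 107 RPKM), and the ranges of mRpL28, mRpS22, mRpS7 and mRpL12 overlap too. Ranges pooled over the groups thus do not fix the order of these 5. Within each library, however, mRpL14 lay above mRpS22, mRpS7 and mRpL12. The lowest members with counts were mRpL11 (16.3 RPKM), of the base of the stalk, mRpL27 (16.0 RPKM), whose bacterial counterpart reaches the tRNA in the peptidyl-transferase centre, mRpS14 (15.4 RPKM) and mRpS24 (8.83 RPKM). Both mRpS14 and mRpS24 share many bases with a neighbour, and mRpS24 had the fewest counts, 30 to 146 per library.

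Across the 9 groups the members moved little. The range of the group means was 0.18 to 0.96 on the log2 scale, with a median of 0.55, so no member reached a 2-fold difference between its highest and lowest group. The widest ranges were those of mRpS24 (0.96), mRpL34 (0.92), mRpL17 (0.91), mRpL27 (0.85) and mRpL49 (0.84). In a test for any difference among the 9 groups, 65 of 72 members passed (edgeR's quasi-likelihood test, Benjamini-Hochberg adjusted p under 0.05), and 87.8% of all 9521 genes tested did so, so the share of members is near the background. Of the 72, 46 had their highest mean in uninduced S2-Grh and 13 in untreated wild type, whereas 32 had their lowest mean in induced S2-Zld, 23 in induced S2-Twi and 12 in wild type at 100 µM. The same counts were not made over all genes, so they are not shown to be particular to the members.

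The median of the members' log2 levels, each taken relative to that gene's mean over the 18 libraries, gives the level of the whole set in a library. It was -0.19 ± 0.018 in induced S2-Zld and 0.04 ± 0.064 in the uninduced line (SD, n = 2 each). In S2-Grh it was 0.06 ± 0.011 with induction and 0.22 ± 0.023 without. Induced S2-Twi was at -0.18 ± 0.117, its libraries standing well apart. Wild type was at 0.17 ± 0.005 with no copper, 0.02 ± 0.094 at 40 µM, -0.08 ± 0.004 at 100 µM and -0.01 ± 0.001 at 1000 µM. The order of the extreme groups depended on the scaling. By library size alone, untreated wild type was highest (0.22, against 0.15 in uninduced S2-Grh). With DESeq2 size factors, induced S2-Twi was lowest (-0.17, against -0.15 in induced S2-Zld). The cytosolic ribosomal protein genes did not follow the same order: their set was high in induced S2-Zld (0.25 ± 0.026), where the mitochondrial set was low, and high in both S2-Grh groups. The libraries were made from whole cultures, so fewer cells of a type and less RNA per cell cannot be told apart.

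**Figure D2:**
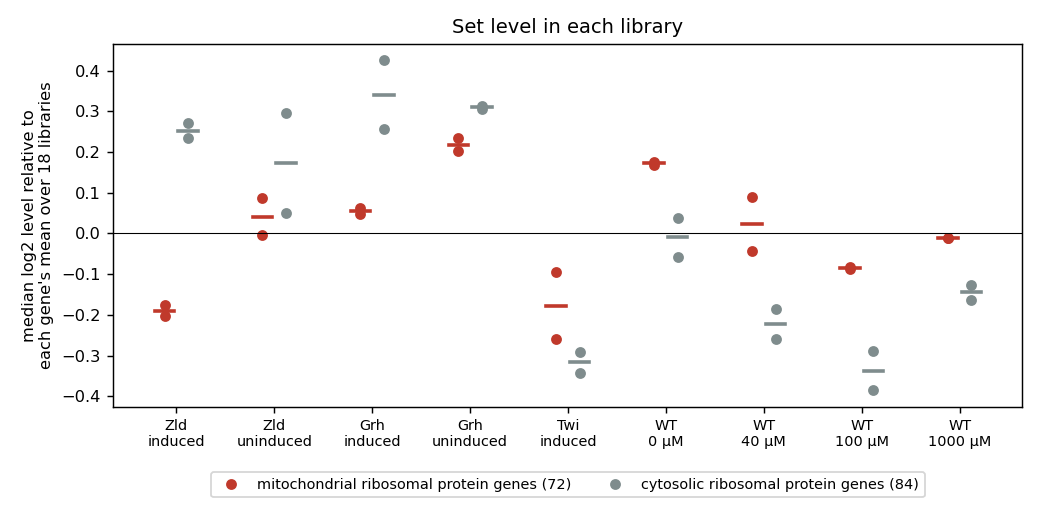
Median log2 level of the set in each library, relative to each gene's mean over 18 libraries, for 72 mitochondrial (red) and 84 cytosolic (grey) ribosomal protein genes; points are libraries, bars group means. With the TMM scaling shown, the mitochondrial set is lowest in induced S2-Zld (-0.19) and S2-Twi (-0.18) and highest in uninduced S2-Grh (0.22). The cytosolic set is high in induced S2-Zld (0.25).

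Most members were lower in wild type cells with 100 µM copper than in untreated ones. Of 72, 44 fell and 1 rose, with a median log2 change of -0.24, and 60 had both copper libraries below both untreated ones. Among all genes tested, 27.0% were called lower and 25.4% higher, with a median of -0.02, and 38.7% had both copper libraries lower. Both subunits took part, with 30 of 46 genes of the large and 14 of 26 of the small subunit lower. By class, 26 of 45 bacterial-type and 18 of 27 mitochondria-specific genes were lower. Of the 30 members with no shared exonic base, 21 were lower, so the decrease was also seen where no neighbour contributes reads.

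The stalk gene mRpL12 (FBgn0011787, chromosome 3L, 8956791 to 8957584), which in Drosophila is needed for growth driven by cyclin D and Cdk4, had 38.9 and 37.5 CPM at 100 µM and 54.7 and 57.5 CPM in untreated cells. Its log2 change was -0.57 ± 0.06 (SE, edgeR adjusted p = 5.55e-07). The gene of mRpL38 (FBgn0030552, chromosome X, 14226289 to 14227949), which in mammals lies in the central protuberance of the large subunit, had 30.4 and 29.2 CPM at 100 µM and 44.2 and 47.6 CPM in untreated cells. The change of mRpL38 was -0.64 ± 0.07 (edgeR adjusted p = 5.29e-07). In each comparison of 2 groups, the genes named for the largest changes were chosen with groups that do not overlap. A gap between their libraries is therefore no added support. The largest decrease was that of mRpL34 (FBgn0083983, chromosome 2R, 16098948 to 16099337), the shortest member and a counterpart of bacterial L34, with 8.22 and 8.02 CPM at 100 µM and 13.5 and 13.8 CPM in untreated cells (log2 change -0.77 ± 0.11, adjusted p = 1.33e-05). Next to these came mRpL48 (-0.75 ± 0.11) and mRpL46 (-0.60 ± 0.06), both proteins of the mammalian central protuberance, mRpS18C (-0.65 ± 0.12), mRpL13 (-0.56 ± 0.10) and mRpL54 (-0.51 ± 0.09). All 8 stayed called when any library of wild type at 0 or 100 µM was left out.

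One member went the other way. The gene of mRpL28 (FBgn0031660, chromosome 2L, 4973976 to 4975316) had 109 and 114 CPM at 100 µM and 98.7 and 98.6 CPM in untreated cells, a log2 change of 0.16 ± 0.06 (edgeR adjusted p = 0.0204). The head protein gene mRpS7 gave -0.08 ± 0.05 and mRpS5, of the decoding region, 0.04 ± 0.09, and neither passed the test. The cytosolic ribosomal protein genes fell as well, 70 of 86 with 2 higher and a median of -0.34. Of 9 mitochondrial translation factors, 4 were lower and 0 higher, among them mEFTu1 (-0.35 ± 0.06), an elongation factor that delivers aminoacyl-tRNA. Of 11 genes for mitochondrial DNA upkeep and transcription, 3 were lower, with TFAM (-0.42 ± 0.06), the packaging protein of mitochondrial DNA, among them, and 2 were higher, with the protease gene Lon at 0.48 ± 0.05.

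At 1000 µM fewer members were called. Of 72, 16 fell and 0 rose, with a median of -0.17, against 13.9% lower and 15.3% higher among all genes tested, whose median was -0.01. In 56 members both copper libraries lay below both untreated ones, as in 39.4% of all genes. The mitochondria-specific mRpL49 had 25.7 and 23.9 CPM at 1000 µM and 34.4 and 36.9 CPM in untreated cells, a log2 change of -0.50 ± 0.08 (edgeR adjusted p = 0.00108). The gene of mRpL17, whose bacterial counterpart lies near the exit of the peptide tunnel, had 32.0 and 31.4 CPM at 1000 µM and 41.7 and 42.8 CPM in untreated cells (-0.39 ± 0.08, adjusted p = 0.00353). Both genes were chosen with groups that do not overlap. Others called lower were mRpL54 (-0.45 ± 0.11), mRpS18A (-0.39 ± 0.12), mRpL1 (-0.34 ± 0.07), of the mobile stalk that guides leaving tRNA in bacteria, mRpS25 (-0.34 ± 0.09), mRpL2 (-0.30 ± 0.10), of the peptidyl-transferase centre, and mRpL16 (-0.29 ± 0.09). The stalk gene mRpL12 had 53.2 and 56.4 CPM at 1000 µM, against 54.7 and 57.5 CPM in untreated cells, overlapping groups with a log2 change of -0.01 ± 0.07 that did not pass the test. Without any 1 of the libraries of wild type at 0 or 1000 µM, 3 to 4 members were called, although the median stayed between -0.18 and -0.17. With the DESeq2 Wald test 3 members were called.

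At 40 µM, 6 members fell and 1 rose, with a median of -0.15, against 19.7% lower and 20.8% higher among all genes tested, whose median was -0.00. The members called lower, 8.33%, do not exceed the background. With the replicate number added to the fit, 14 members were lower and 1 higher, against 2118 lower and 2139 higher of 8909 genes tested. The gene of mRpL48, whose values are uncertain with 20.8% shared bases, had 17.0 and 14.8 CPM at 40 µM. In untreated cells it had 24.1 and 24.9 CPM (log2 change -0.61 ± 0.11, edgeR adjusted p = 0.00522). Levels of mRpL38 were 32.2 and 29.8 CPM at 40 µM and 44.2 and 47.6 CPM in untreated cells (-0.56 ± 0.08, adjusted p = 0.00284). Of the 7 called members, these 2 had the largest changes and stayed called whichever library of wild type at 0 or 40 µM was left out. The others called lower were mRpS16 (-0.32 ± 0.10), mRpL21 (-0.30 ± 0.10), mRpS26 (-0.27 ± 0.09) and mRpL49 (-0.26 ± 0.09), and mRpS22 was higher, with 113 and 112 CPM at 40 µM and 97.3 and 99.3 CPM in untreated cells (0.20 ± 0.07, adjusted p = 0.0423). The count of called members was 17 without replicate 1 at 40 µM and 2 without its replicate 2 or without either untreated library.

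The Zld line was first compared with wild type in the absence of added copper. Uninduced S2-Zld had 5 members lower and 0 higher, with a median of -0.08, against 10.2% lower and 10.4% higher among all genes tested (median -0.01), so the 6.94% of members called lower do not exceed the background. The called genes were mRpS14 (-0.52 ± 0.14), mRpL2 (-0.34 ± 0.10), mRpL38 (-0.34 ± 0.08), mRpL46 (-0.32 ± 0.08) and mRpS26 (-0.27 ± 0.07). Levels of mRpL38 were 35.5 and 36.6 CPM in uninduced S2-Zld and 44.2 and 47.6 CPM in untreated wild type (edgeR adjusted p = 0.0139). Leaving out 1 library gave 0 to 14 called members, 0 without replicate 2 of untreated wild type, 1 without its replicate 1, 4 without replicate 1 of uninduced S2-Zld and 14 without its replicate 2. With scaling by library size alone, 18 members and 1831 of 8881 genes tested were lower, on a scale where the median of all genes was -0.10.

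Induction of Zld was followed by lower levels of part of the set, in both comparisons available. Against wild type at the same printed number, 18 of 72 members fell and 0 rose, with a median log2 change of -0.17, whereas 17.3% of all genes tested were lower and 19.1% higher (median 0.02). In 51 members both induced libraries lay below both wild type ones, as in 38.1% of all genes. Against the uninduced line, 26 fell and 0 rose, with a median of -0.22, against 20.1% lower and 23.0% higher among all genes (median 0.00), and 52 had both induced libraries below both uninduced ones, as 37.2% of all genes did. These comparisons share the induced libraries and are not independent. In the same libraries the cytosolic ribosomal protein genes were higher than in wild type at 1000 µM, 74 of 86 with a median of 0.43, and 5 were higher and 1 lower than in the uninduced line, with a median of 0.12.

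Against wild type at 1000 µM the largest decrease was that of mRpL27, with 10.4 and 11.0 CPM in induced S2-Zld and 15.9 and 15.8 CPM in wild type (log2 change -0.55 ± 0.11, edgeR adjusted p = 0.00419). The gene of mRpS34, a mitochondria-specific protein of the small subunit, had 24.1 and 24.8 CPM in induced S2-Zld and 36.8 and 33.7 CPM in wild type (-0.51 ± 0.09, adjusted p = 0.00127). The mitochondria-specific mRpL43 had 15.2 and 14.4 CPM in induced S2-Zld and 20.6 and 21.3 CPM in wild type (-0.48 ± 0.10, adjusted p = 0.00504). All 3 were chosen with groups that do not overlap. Smaller decreases were those of mRpL20 (-0.40 ± 0.14), whose bacterial counterpart acts in subunit assembly, mRpS18B (-0.37 ± 0.13), mRpL36 (-0.34 ± 0.11), mRpL46 (-0.32 ± 0.09) and mRpL50 (-0.31 ± 0.10). Called members were 10 of 27 mitochondria-specific and 8 of 45 bacterial-type genes, and 13 of the 30 members that share no exonic base. The count was 2 to 8 when 1 of the libraries of these groups was left out, against a median of -0.21 to -0.15, and 5 with the DESeq2 Wald test.

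Against the uninduced line the largest decreases were in mRpL34 and mRpL49. Levels of mRpL34 were 8.35 and 9.56 CPM in induced and 16.4 and 13.5 CPM in uninduced S2-Zld (log2 change -0.70 ± 0.15, edgeR adjusted p = 0.00381). Those of mRpL49 were 19.1 and 21.3 CPM in induced and 33.0 and 32.3 CPM in uninduced cells (-0.66 ± 0.10, adjusted p = 0.000379). The gene of mRpS18A, whose mammalian counterpart sits in the large subunit, had 14.5 and 16.8 CPM in induced and 27.5 and 22.3 CPM in uninduced cells (-0.63 ± 0.14, adjusted p = 0.00357). The choice of these genes required that induced and uninduced libraries not overlap. Also lower were mRpS18B (-0.53 ± 0.13), a paralogue of mRpS18A, mRpS28 (-0.49 ± 0.12), mRpL11 (-0.48 ± 0.13), mRpL17 (-0.47 ± 0.09) and mRpS17 (-0.47 ± 0.08). By symbol, 12 of 26 genes of the small subunit fell and 14 of 46 of the large. The 12 include mRpS18A and mRpS30, whose mammalian counterparts sit in the large subunit. The third member of the mRpS18 family, mRpS18C, had 10.4 and 9.93 CPM in induced and 10.1 and 11.1 CPM in uninduced cells, overlapping groups. Without replicate 1 of induced S2-Zld 11 members were called, and 14 with the DESeq2 Wald test.

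Copper was itself part of the contrast within the line, so the change in S2-Zld was set against that in wild type at 1000 µM. In this test of line by copper, 0 of 72 members passed, 5 had an unadjusted p under 0.05, and the median difference was -0.07 (edgeR); the DESeq2 Wald test called 0 as well. Among all genes tested 6.54% were lower and 5.96% higher. The decrease of the members with induction is therefore not shown to differ from the decrease seen with copper in wild type. The largest difference among the 72, that of mRpL11, was -0.46 ± 0.18 (edgeR adjusted p = 0.140). The lowest adjusted p was that of mRpS34, just over the threshold (-0.35 ± 0.11, edgeR adjusted p = 0.0592). Without replicate 1 or without replicate 2 of uninduced S2-Zld, 5 members were called.

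**Figure D3:**
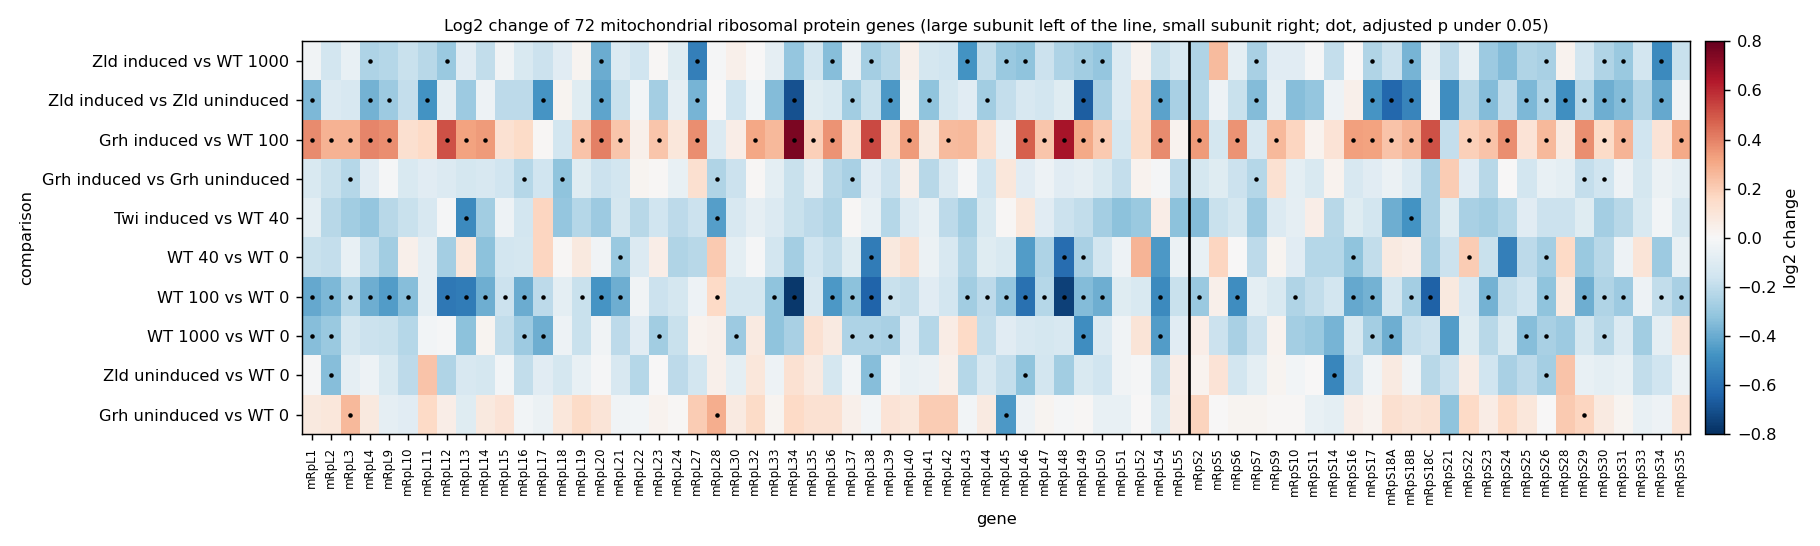
Log2 change of each of 72 members (columns, large subunit left of the line) in 10 comparisons (rows, numbers after WT are µM CuSO4), blue lower and red higher in the group named first; dots mark an adjusted p under 0.05. The row of induced S2-Grh against wild type at 100 µM holds 42 higher members, and that of wild type at 100 µM against 0 holds 44 lower ones.

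In the Grh line without added copper, 3 members were higher and 1 lower than in untreated wild type, with a median of 0.05, and 23.7% of all genes tested were called in either direction (median -0.00). The 4 members do not exceed that background. The gene of mRpL45 (FBgn0263863, chromosome 3R, 22618492 to 22619826), related to a yeast protein that ties the ribosome to the inner membrane, was the one that fell, with 68.3 and 68.9 CPM in uninduced S2-Grh and 91.1 and 95.8 CPM in untreated wild type (log2 change -0.46 ± 0.06, edgeR adjusted p = 1.19e-05). In the same cells mRpL28 had 118 and 125 CPM, against 98.7 and 98.6 CPM in untreated wild type (0.29 ± 0.06, adjusted p = 0.000909). Both genes were chosen with groups that do not overlap, and they moved in opposite directions. The gene of mRpL3, next to the peptidyl-transferase centre, was also higher (0.26 ± 0.07), as was mRpS29 (0.17 ± 0.06), a GTP-binding protein known in mammals as DAP3. Scaled by library size alone, 1 member was higher and 3 were lower, with a median of -0.06 where that of all genes was -0.10, so the direction of the set rests on the scaling. Without replicate 1 of untreated wild type or without replicate 2 of uninduced S2-Grh, 2 members were called.

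Induced S2-Grh against wild type at 100 µM gave the largest count of higher members among the 10 comparisons of 2 groups. Of 72, 42 rose and 0 fell, with a median of 0.23, against 33.6% higher and 27.2% lower among all genes tested (median 0.05). In 45 members both induced libraries lay above both wild type ones, as in 37.6% of all genes. Both subunits were involved, with 26 of 46 genes of the large and 16 of 26 of the small subunit higher. The cytosolic ribosomal protein genes rose more, 82 of 85 with a median of 0.74. The wild type libraries of this comparison are those in which 44 members were lower than in untreated wild type, so these comparisons share libraries, and the values of untreated wild type are given too.

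Levels of mRpL34 were 13.0 and 13.1 CPM in induced S2-Grh and 8.22 and 8.02 CPM in wild type at 100 µM (log2 change 0.75 ± 0.11, edgeR adjusted p = 2.91e-05), while untreated wild type had 13.5 and 13.8 CPM. Levels of mRpL38 were 41.7 and 40.3 CPM in induced S2-Grh and 30.4 and 29.2 CPM in wild type at 100 µM (0.53 ± 0.07, adjusted p = 7.93e-06), while untreated wild type had 44.2 and 47.6 CPM. Levels of mRpL12 were 52.8 and 51.0 CPM in induced S2-Grh and 38.9 and 37.5 CPM in wild type at 100 µM (0.51 ± 0.06, adjusted p = 4.24e-06), while untreated wild type had 54.7 and 57.5 CPM. In all 3 genes induced S2-Grh stood above copper-treated and slightly below untreated wild type. The others with the largest increases were mRpL48 (0.66 ± 0.12), mRpS18C (0.51 ± 0.12), mRpL46 (0.48 ± 0.07), mRpL20 (0.40 ± 0.12) and mRpL4 (0.39 ± 0.07), which lines the peptide tunnel in bacterial ribosomes. With untreated wild type as the control, a choice made after the values were seen, 1 member was higher and 9 were lower, with a median of -0.07. Scaled by library size alone, 11 were higher and 8 lower, with a median of 0.06 where that of all genes was -0.12. On that scale 1855 of 8666 genes tested were higher and 3481 lower, so the members called higher do not exceed the background. The DESeq2 Wald test called 11 members higher and 0 lower.

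**Figure D4:**
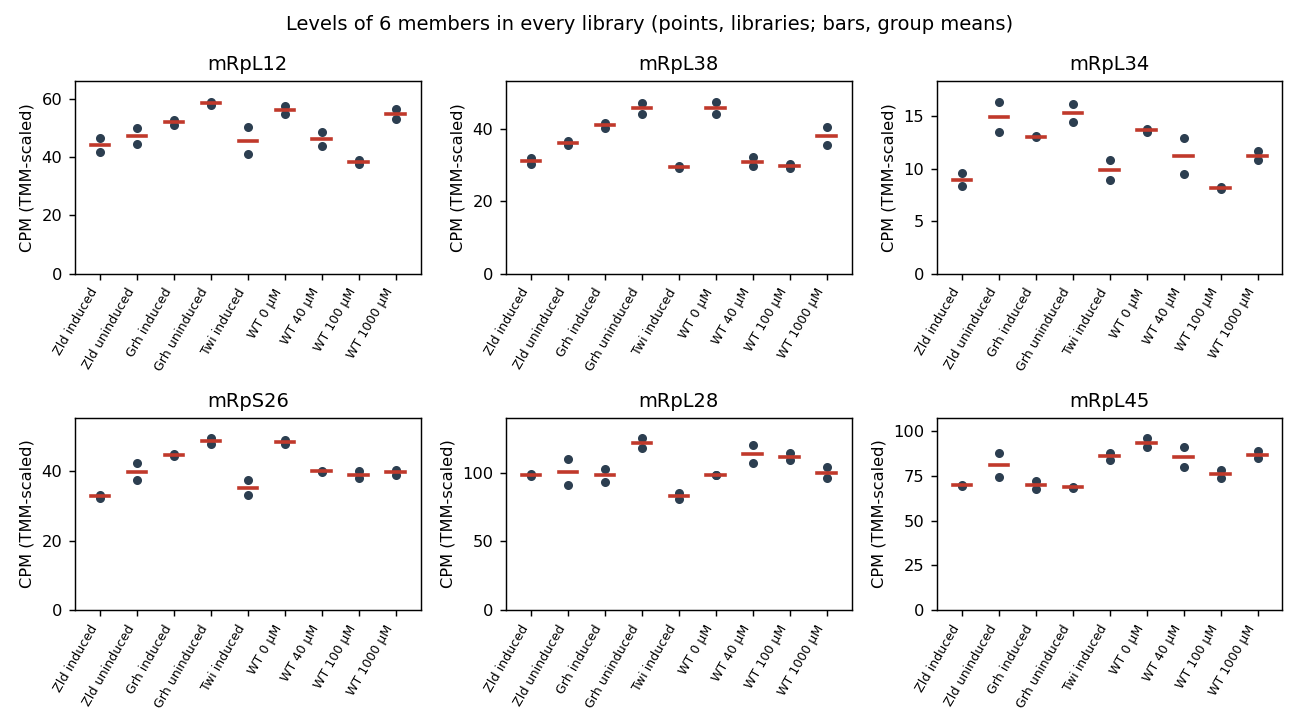
CPM (TMM-scaled) of 6 members in every library; points are libraries, red bars group means, and wild type runs from 0 to 1000 µM CuSO4. In mRpL12, mRpL38 and mRpL34 wild type at 100 µM is low (mRpL12 at 38.9 and 37.5 CPM), whereas mRpL28 is highest and mRpL45 lowest in uninduced S2-Grh.

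Against its own uninduced line, induced S2-Grh had 8 members lower and 0 higher, with a median of -0.11, and 10.6% of all genes tested were lower and 16.7% higher (median 0.00). The share of members called lower, 11.1%, is near the background. In 54 members both induced libraries lay below both uninduced ones, as in 39.8% of all genes. The gene of mRpL18, whose bacterial counterpart binds 5S rRNA, had 28.5 and 31.2 CPM in induced and 38.0 and 39.4 CPM in uninduced S2-Grh (log2 change -0.32 ± 0.07, edgeR adjusted p = 0.00335). Levels of mRpS7 were 61.1 and 62.8 CPM in induced and 75.2 and 76.1 CPM in uninduced cells (-0.23 ± 0.06, adjusted p = 0.00620). Levels of mRpL28 were 103 and 93.5 CPM in induced and 118 and 125 CPM in uninduced cells (-0.24 ± 0.06, adjusted p = 0.00565). Absence of overlap between the groups was part of how these genes were chosen. The rest were mRpL37 (-0.26 ± 0.07), mRpL16 (-0.23 ± 0.08), mRpL3 (-0.23 ± 0.07), mRpS29 (-0.19 ± 0.06) and mRpS30 (-0.16 ± 0.05). The count was 2 without replicate 2 and 4 without replicate 1 of uninduced S2-Grh, and 3 with the DESeq2 Wald test. Of 13 genes of protein import into mitochondria, 6 were lower and 0 higher, among them Tom40 (-0.16 ± 0.05), the pore of the outer membrane, and the chaperone gene Hsc70-5 (-0.18 ± 0.06). Of 9 translation factors only mEFTu1 was lower (-0.42 ± 0.06), with 0 higher.

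In the test of line by copper for Grh, the change with induction lay above the change with 100 µM copper in wild type for 16 members and below it for 1, with a median difference of 0.16, against 24.1% above and 19.2% below among all genes tested (median 0.06). The share of members above, 22.2%, is near the background. Of the 16, 14 were of the large and 2 of the small subunit. For mRpL38 the difference was 0.54 ± 0.09 (edgeR adjusted p = 0.000177): induced and uninduced S2-Grh had 41.7 and 40.3 CPM and 47.2 and 44.3 CPM, whereas wild type with and without 100 µM copper had 30.4 and 29.2 CPM and 44.2 and 47.6 CPM. For this gene the decrease with induction in the Grh line, where copper and Grh act together, was smaller than that with copper in wild type. Other members above were mRpL48 (0.65 ± 0.16), mRpL34 (0.58 ± 0.15), mRpL46 (0.51 ± 0.09), mRpL54 (0.49 ± 0.13), mRpL12 (0.46 ± 0.08), mRpL9 (0.43 ± 0.10), mRpL13 (0.41 ± 0.14) and mRpL45 (0.40 ± 0.08). The member below was mRpL28 (-0.41 ± 0.08, adjusted p = 0.000442), which rose with copper in wild type and fell with induction in S2-Grh. The DESeq2 Wald test called 7 members, and the fit on all 18 libraries 5.

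Induced S2-Twi had 3 members lower and 0 higher than wild type at 40 µM, with a median of -0.18, against 4.27% lower and 6.25% higher among all genes tested (median -0.00). The share of members lower, 4.17%, is near the background. With the replicate number added to the fit, 8 members were lower and 0 higher, against 621 lower and 783 higher of 8909 genes tested. In 36 members both induced libraries lay below both wild type ones, as in 26.0% of all genes. Levels of mRpS18B were 23.0 and 22.9 CPM in induced S2-Twi and 33.1 and 31.3 CPM in wild type at 40 µM (log2 change -0.48 ± 0.08, edgeR adjusted p = 0.0128). Levels of mRpL28 were 80.8 and 85.5 CPM in induced S2-Twi and 107 and 120 CPM in wild type (-0.44 ± 0.08, adjusted p = 0.0163). Levels of mRpL13 were 11.5 and 10.7 CPM in induced S2-Twi and 15.8 and 16.0 CPM in wild type (-0.51 ± 0.11, adjusted p = 0.0294). These 3 were likewise chosen with groups that do not overlap, and mRpL13 shares 35.2% of its bases with a neighbour, so its values are uncertain. Without either library of induced S2-Twi 0 members were called, and 7 without replicate 2 of wild type at 40 µM; the median ran from -0.28 to -0.08. Among 86 cytosolic ribosomal protein genes 0 were called in either direction in edgeR, 11 had an unadjusted p under 0.05, and the median was -0.08.

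**Figure D5:**
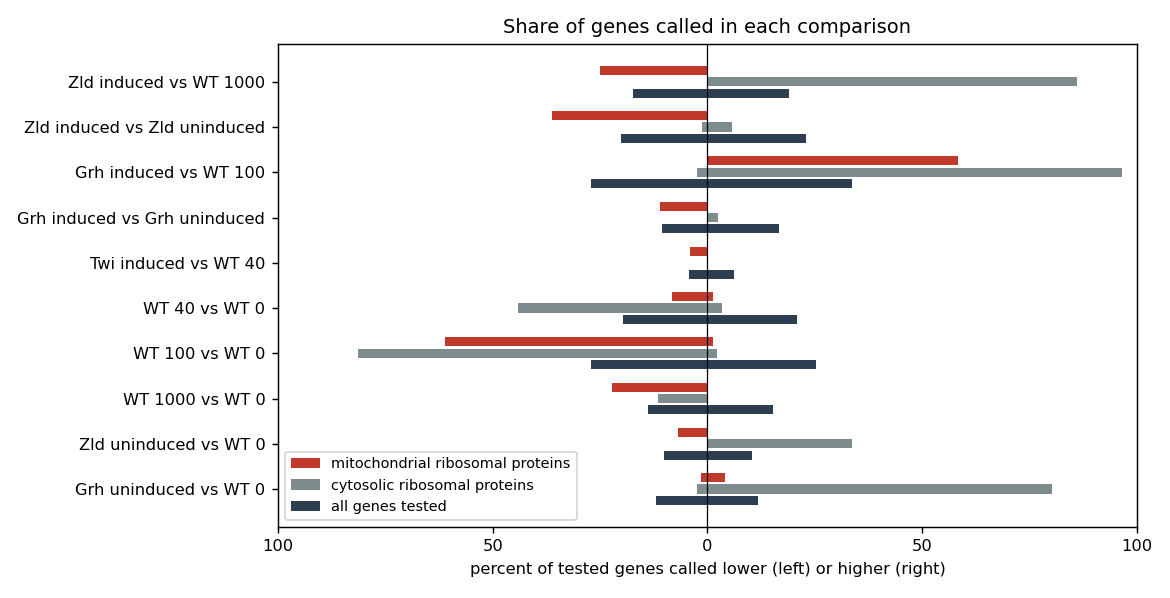
Percent of tested genes called lower (left) and higher (right) in 10 comparisons, for the mitochondrial set (red, 72 genes), the cytosolic set (grey) and all genes tested (dark); numbers after WT are µM CuSO4. Mitochondrial and cytosolic sets point the same way in wild type at 100 µM and in induced S2-Grh against it, and opposite ways in induced S2-Zld against wild type at 1000 µM.

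The effects of the factors, each taken against wild type at its own copper number, were compared with each other on all 18 libraries. The Zld effect lay below the Grh effect in 27 members and above it in 0, with a median difference of -0.29, against 20.6% below and 22.0% above among all genes tested (median 0.01). For mRpL34 the difference was -1.01 ± 0.22 (edgeR adjusted p = 0.00152) and for mRpL12 -0.76 ± 0.13 (adjusted p = 0.000257). Next came mRpL27 (-0.88 ± 0.18), mRpL48 (-0.85 ± 0.20), mRpL20 (-0.75 ± 0.17), mRpL38 (-0.75 ± 0.11), mRpL46 (-0.74 ± 0.17) and mRpL43 (-0.70 ± 0.20). The Grh effect lay above the Twi effect in 32 members and below it in 0, with a median of 0.35, against 18.5% above and 21.6% below among all genes (median -0.02). The largest of these were mRpL34 (0.88 ± 0.21), mRpL13 (0.77 ± 0.16), mRpL48 (0.77 ± 0.20), mRpS18C (0.71 ± 0.19), mRpS18B (0.70 ± 0.16), mRpL4 (0.64 ± 0.11), mRpL20 (0.63 ± 0.16) and mRpS2 (0.63 ± 0.13). Between the Zld and Twi effects 1 member differed in each direction, mRpL28 (0.42 ± 0.12, adjusted p = 0.0172) above and mRpS34 (-0.49 ± 0.14, adjusted p = 0.0201) below, with a median of 0.01, against 11.1% above and 10.0% below among all genes. Without replicate 2 of induced S2-Twi 17 members, and without replicate 1 of wild type at 100 µM 19 members, differed between the Grh and Twi effects. Between the Zld and Twi effects, 0 differed without replicate 1 of induced S2-Twi and 6 without replicate 1 of wild type at 40 µM. These differences carry the difference between the copper controls too, and the controls cannot be told apart from the factors in them.

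Members differed in how often they were called over the 12 comparisons of groups and of line by copper, which share libraries. The mitochondria-specific mRpS26 (FBgn0036774, chromosome 3L, 18106579 to 18107499) was called in 8, mRpL38 and mRpL49 in 7, mRpS30 in 6, and 8 members, mRpL1 among them, in 5. At the other end 9 of the 72 tested members were called in 0 and 16 in 1. Calls per gene were not counted over all genes, so these numbers are not shown to be particular to the members. Levels of mRpS26 were 32.3 and 33.2 CPM in induced and 37.3 and 42.4 CPM in uninduced S2-Zld, 44.9 and 44.3 CPM in induced and 49.4 and 47.8 CPM in uninduced S2-Grh, and 37.3 and 33.2 CPM in induced S2-Twi. In wild type they were 48.8 and 47.8 CPM with no copper, 39.7 and 40.1 CPM at 40 µM, 37.9 and 39.9 CPM at 100 µM and 39.0 and 40.4 CPM at 1000 µM. Untreated wild type and uninduced S2-Grh were thus alike and above all other groups for this gene. Among the genes named for their place in the ribosome, mRpS30 (FBgn0030692, chromosome X, 15786047 to 15788288), whose mammalian counterpart sits in the large subunit, had 71.7 and 73.9 CPM in induced S2-Zld, 97.6 and 97.6 CPM in the uninduced line, and 86.6 and 87.9 CPM in wild type at 1000 µM. Its log2 change with induction was -0.39 ± 0.06 against the uninduced line (edgeR adjusted p = 0.000615) and -0.24 ± 0.06 against wild type (adjusted p = 0.0111). The gene of mRpS5 passed the test in none of the 10 comparisons of 2 groups, with 29.7 to 46.1 RPKM over the libraries.

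Values of the stalk and tunnel proteins are given for the comparisons with many called members; differences between members were not tested. In induced S2-Zld against the uninduced line, mRpL11 fell (-0.48 ± 0.13), and the stalk genes mRpL12 (-0.07 ± 0.09) and mRpL10 (-0.19 ± 0.10) did not pass the test. Around the peptide tunnel, mRpL4 (-0.38 ± 0.08) and mRpL44 (-0.28 ± 0.09) passed the test, as did mRpL17, given above. The values of mRpL23 (-0.27 ± 0.10) and mRpL45 (-0.19 ± 0.08), within error of mRpL44, did not pass. The median of all 72 members was -0.22 in this comparison, so negative values are not particular to the tunnel genes. At 100 µM copper in wild type, mRpL12 (-0.57 ± 0.06), mRpL10 (-0.34 ± 0.07), mRpL4 (-0.39 ± 0.07), mRpL44 (-0.21 ± 0.07) and mRpL45 (-0.31 ± 0.06) fell, and mRpL11 (-0.07 ± 0.11) and mRpL23 (-0.17 ± 0.08) did not pass. Of the small subunit, mRpS2 (-0.30 ± 0.08) and mRpS29 (-0.39 ± 0.06) fell there.

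Proteins of the same ribosome under other symbols are tko, the counterpart of bacterial S12, and bonsai, that of S15. Levels of tko were 31.5 and 38.6 CPM in uninduced S2-Zld and 42.4 and 44.1 CPM in untreated wild type (log2 change -0.28 ± 0.09, edgeR adjusted p = 0.0493), the only 2-group comparison in which it passed. Levels of bonsai were 58.1 and 56.7 CPM in uninduced S2-Zld, 61.7 and 63.1 CPM in uninduced S2-Grh and 48.3 and 49.9 CPM in untreated wild type, and it was higher in both lines (0.23 ± 0.07 in S2-Zld, 0.34 ± 0.06 in S2-Grh). Induced S2-Grh also had more bonsai than wild type at 100 µM (0.31 ± 0.07). Among regulators of growth, Myc was higher in 6 and lower in 1 of the 10 comparisons of 2 groups. It was higher in wild type at 100 µM than in untreated cells (0.98 ± 0.05), where most members were lower, and lower in induced S2-Grh than in wild type at 100 µM (-0.43 ± 0.05). The gene of Dref, a factor that binds the DNA replication-related element, was lower in 6 of the 10 and higher in 0. It was lower in wild type at 40 µM (-0.41 ± 0.09), 100 µM (-0.26 ± 0.05) and 1000 µM (-0.32 ± 0.06) than in untreated cells, and lower in induced than in uninduced S2-Zld (-0.41 ± 0.06).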

How the data were processed

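RNA was measured in 18 libraries of Drosophila S2 cells, made with a polyA kit that does not keep strand, per the labels' protocols. The deposited values are read counts per gene, 1 column per library, not pooled. Per the submitters' processing notes, the tools were HISAT2 2.1.0, featureCounts of Subread 2.0 and DESeq2, with build dm6; the order, annotation release and strand setting are not given in the sources used here. The other deposited column is gene length in bases, per the file headers, from which RPKM were computed here.

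Groups came from the sample titles. Counts were tested with edgeR 4.0.16 (R 4.3.3): filterByExpr, TMM factors, a robust quasi-likelihood fit, and Benjamini-Hochberg adjusted p over all genes passing the filter, with a call at an adjusted p under 0.05. Each group held 2 libraries. Comparisons within a line or with its matched wild type used 6 or 8 libraries, and factor effects all 18, leaving 3, 4 and 9 residual degrees of freedom. Errors of log2 changes are standard errors, the absolute change divided by the square root of the F statistic. Libraries held 10459648 to 28575923 counts, which makes 3 counts 0.105 to 0.287 CPM; such floors cover counting error only. The test was checked on simulated data.

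The members and the other gene lists were chosen with earlier results of these data known, and the family classes of mRpL47 and mRpL55 were corrected after the values were seen. Named members are, per comparison, up to 8 called with the largest change and groups that do not overlap, up to 4 called against the majority, the 5 highest and 5 lowest per length, the 5 called most often, the 5 with the widest range, those of known place in the ribosome, and those no filter passes. Alternatives were DESeq2 1.42.0, other scalings, no filter, all libraries in 1 fit, a replicate block, members with no shared exonic base, and leaving out each library; untreated wild type as the control was added after seeing the data. Sequences are not used here.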

Additional observations from a re-analysis of the deposited data

Results flagged for a closer look

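Effects that differed between lines or factors by a test of the difference itself are listed here. The change with copper differed between S2-Grh and wild type for 17 members, 16 of them above and 1 below, against 24.1% above and 19.2% below among all genes, so neither share exceeds the background. They include mRpL38 (0.54 ± 0.09, edgeR adjusted p = 0.000177) and mRpL28 (-0.41 ± 0.08, adjusted p = 0.000442). The Zld effect differed from the Grh effect for 27 members (37.5%), all 27 below, against 20.6% below and 22.0% above among all genes. The Zld effect differed from the Twi effect for 2 members, mRpL28 above and mRpS34 below, against 11.1% above and 10.0% below among all genes, which the members do not exceed. The Grh effect differed from the Twi effect for 32 members (44.4%), all 32 above, against 18.5% above and 21.6% below among all genes. The 3 differences between factors include those between the copper controls, and the part of the controls cannot be told apart from that of the factors.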

How the results depend on the processing

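With 2 libraries per group, counts and some medians depended on the settings, and the cause was not tested. Induced S2-Zld against wild type at 1000 µM had 31 members lower (median -0.27) with scaling by library size alone, against 2294 of 8780 genes (median -0.08). The DESeq2 Wald test called 5. With untreated wild type as the control 50 members were lower (median -0.37), against 2407 of 8881 genes (median 0.01). Against the uninduced line DESeq2 called 14. Induced S2-Grh against wild type at 100 µM had 19 (median 0.06) by library size, 23 (median 0.16) with all 18 libraries in the fit, 11 with DESeq2 and 10 (median -0.07) with untreated wild type as the control. With that control the 8 genes with the largest increases turned to mRpL12 -0.07, mRpL20 -0.07, mRpL34 -0.02, mRpL38 -0.12, mRpL4 -0.01, mRpL46 -0.14, mRpL48 -0.11 and mRpS18C -0.14, none of them called. Against the uninduced Grh line the count was 13 by library size and 3 with DESeq2, and the median -0.17 with all libraries. Induced S2-Twi against wild type at 40 µM had 9 with no filter, 18 with all libraries and 31 (median -0.33) against untreated wild type. Wild type at 40 µM against untreated had 12 with no filter, 13 by library size, 19 with all libraries and 3 with DESeq2. At 100 µM the median was -0.29 over members with no shared exonic base, and at 1000 µM DESeq2 called 3. Uninduced S2-Zld against untreated wild type had 10 with no filter, 18 (median -0.17) by library size, 3 with all libraries and 1 with DESeq2. Uninduced S2-Grh had a median of -0.06 by library size and 2 calls with DESeq2. The Grh test of line by copper had a median of 0.11 by library size, 5 calls (median 0.10) with all libraries and 7 with DESeq2. The Zld and Twi effects differed in 4 members with no filter. Where no count over all genes stands beside them, these member counts are not set against a background.

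Leaving out 1 library at a time gave these ranges of called members and medians. Induced S2-Zld had 2 to 8 (-0.21 to -0.15) against wild type at 1000 µM and 11 to 39 (-0.27 to -0.20) against the uninduced line. Induced S2-Grh had 28 to 40 (0.22 to 0.23) against wild type at 100 µM and 2 to 10 (-0.13 to -0.11) against the uninduced line. Induced S2-Twi had 0 to 7 (-0.28 to -0.08). Wild type against untreated cells had 2 to 17 (-0.23 to -0.09) at 40 µM, 34 to 39 (-0.26 to -0.23) at 100 µM and 3 to 4 (-0.18 to -0.17) at 1000 µM. Uninduced S2-Zld had 0 to 14 (-0.11 to -0.07) and uninduced S2-Grh 2 to 4 (0.03 to 0.06). Line by copper gave 0 to 5 (-0.13 to -0.04) for Zld and 12 to 24 (0.14 to 0.20) for Grh. The Zld and Grh effects differed in 21 to 29 members, the Zld and Twi effects in 0 to 6, the Grh and Twi effects in 17 to 43, and any of the 9 groups in 57 to 67. A lone library left in a group is assumed to vary like the others. Counts over all genes are not given for these fits, so the ranges do not show whether members exceed the background.

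The labels do not say whether same-numbered libraries share a culture or batch. Over 36 pairs of groups the correlation of their deviations ran from -0.246 to 0.414, with 4 over 0.1. The highest was that of induced S2-Twi with wild type at 40 µM, which are compared directly. With the replicate block, calls were 5 in place of 8 for induced against uninduced S2-Grh, 8 in place of 3 for S2-Twi and 15 in place of 7 for wild type at 40 µM.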
